A study of Xenopus tropicalis with 4 samples.

Results

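The genes described here encode digestive enzymes of the exocrine pancreas: try10 (a trypsin), ctrl and ctrb1 (chymotrypsins), cpa1 and cpb1 (carboxypeptidases), cel and pnlip (lipases). They were taken by symbol from the deposited table, where 6 of the 7 symbols had rows, and ctrb1 was not analysed here. The 6 genes hold 7 of the 66426 polyadenylation sites and are 6 of 15410 named genes. RNA came from whole-body homogenates of adult Xenopus tropicalis, a diploid clawed frog, with 2 males and 2 females. Each library was made from a single frog, with no strain or exact age in the labels. The assay, WTTS-seq, reads the 3' ends of poly(A) RNA, so that a read count stands for RNA ends and does not grow with transcript length. The question named in the series title is whether males and females end their transcripts at different sites.

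Acinar cells of the pancreas make digestive enzymes in bulk, store most proteases as inactive precursors in granules and release them into the gut after a meal. In the gut, trypsin is activated first and then cleaves the precursors of chymotrypsin, elastase and the carboxypeptidases. Lipases and amylase are released alongside them and act on fat and starch.

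Libraries of males 1 and 2 held 2779715 and 1531471 reads, and those of females 1 and 2 held 2380500 and 1778737 reads. Levels are given as CPM, read counts scaled to a common library total, after TMM scaling, which corrects for RNA composition. The 23 listed oocyte and egg genes with reads summed to 9.51 and 10.7 CPM in the males and to 5205 and 5100 CPM in the females. Of the 21 tested, all were higher in females, as were 1995 of all 10188 genes tested. All 21 met the minimum for testing, given below, through the females only. Their calls are therefore no separate sign of a female excess. No read was counted for 18 of the 23 in male 1 and for 18 in male 2. In bulk RNA of a whole body, fewer cells of a type and less RNA per cell cannot be told apart. The part of egg RNA in the differences below was not tested. With the 4 libraries scaled so that muscle, nerve, connective tissue and liver genes had a median difference of 0, the median of all genes shifted by -3.75 on the log2 scale. The log2 fold change was then 0.17 for try10 and negative for the other 4 tested enzymes. With library size alone the shift was -0.88. Of all genes called, 46.6% were higher in males after TMM scaling, 23.8% with library size alone and 0.763% with the tissue scaling.

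After TMM scaling every one of the 6 genes had more CPM in both males than in both females, a separation seen in 32.1% of all 10188 tested genes. Relative to library size alone, female 2 was above male 1 for ctrl, cpa1 and cel, so their separation depended on the scaling. The minimum for testing was 10 reads in a library of median size, in 2 libraries. The 5 genes tested reached it in all 4 libraries, while pnlip reached it in male 2 only. By edgeR's quasi-likelihood test with Benjamini-Hochberg adjustment, try10 and cpb1 were higher in males. That is 2 of 5, against 17.1% of all genes tested. The median log2 fold change, male over female, was 2.61 over the 5 genes and -0.35 over all genes. Lists of other body tissues had medians as high or higher. They were 2.91 for liver (15 of 22 tested genes higher in males), 2.98 for stomach (7 of 10), 3.35 for intestine (12 of 15), 3.79 for connective tissue (11 of 14), 3.84 for muscle (19 of 19) and 4.25 for nerve (9 of 10).

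**Figure D1:**
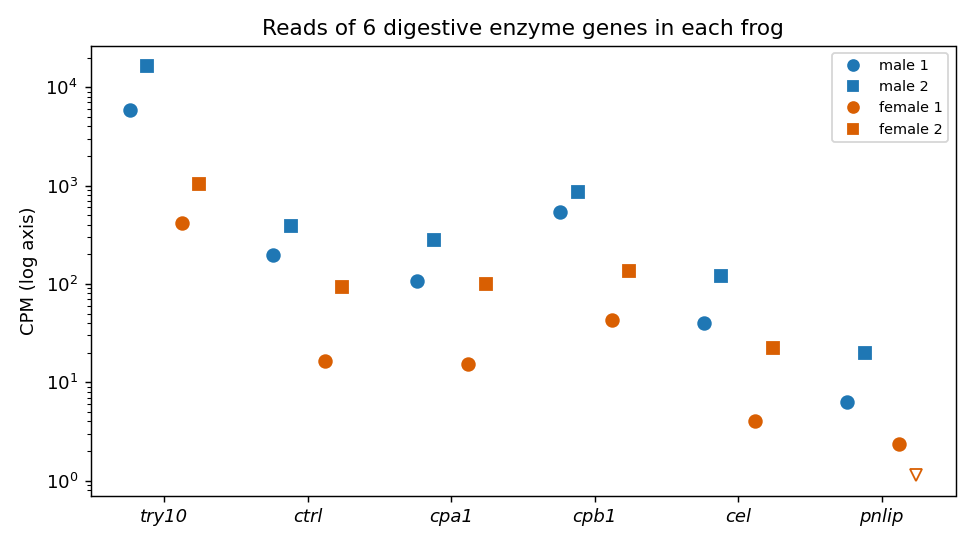
Level of each enzyme gene in CPM on a log axis, with 1 point per frog, males left of females, and an open triangle at the level of 3 reads where the count was 0. Both males lie above both females for all 6 genes after TMM scaling, though with libraries scaled to muscle, nerve, connective tissue and liver genes 4 of the 5 tested genes have a negative log2 fold change.

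Trypsin dominated the set. The try10 gene, whose product activates the other precursors, had 11037 and 19849 reads in males 1 and 2, against 1244 and 2713 reads in females 1 and 2. On the CPM scale these were 5832 and 16306 in the males and 420.1 and 1027 in the females. By reads it ranked 30 and 7 among the genes of the males and 282 and 30 among the genes of the females. The lower male stood 5.68-fold above the higher female. Means were 11069 ± 7407 CPM in males and 723 ± 429 CPM in females (SD, n = 2 each), a log2 fold change of 3.94 ± 1.07 (SE, edgeR adjusted p = 0.0261). Without female 1 the adjusted p was 0.0858 at a log2 fold change of 3.42, and without male 2 it was 0.101 at 2.92.

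The chymotrypsin-like gene ctrl, whose enzyme class cuts after large hydrophobic residues, had 369 and 476 reads in the males and 49 and 246 in the females. That was 195 and 391 CPM in the males, against 16.5 and 93.1 CPM in the females. After TMM scaling the females were 5.63-fold apart and the males 2.01-fold. The sexes then did not overlap, a separation lost with library size alone. The log2 fold change of 2.42 ± 0.86 (SE, 95% interval 0.43 to 4.4) missed the threshold (edgeR adjusted p = 0.0585). Without female 2 it was 4.01 (edgeR adjusted p = 0.0236).

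On chromosome 4, ctrl lies beside ctrb2 in the deposited table, with LOC101733231 and LOC100489516 further along. These neighbours were looked at after values were seen. The RefSeq gene table places its ctrb1 between LOC100489516 and LOC101733231, and lists ctrb1 as a synonym of ctrl, so symbols of chymotrypsin genes may not name the same gene in both sources. LOC101733231 had 153 and 417 CPM in the males and 23.6 and 49.6 CPM in the females (log2 fold change 2.96 ± 0.73, SE, edgeR adjusted p = 0.0199). LOC100489516 had 558 and 1120 CPM in the males and 68.6 and 262 CPM in the females, and missed the threshold at an adjusted p of 0.0548 in edgeR. Reads shared by near-identical trypsin or chymotrypsin copies could have been split between them, so values of single copies are uncertain.

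Among the carboxypeptidases, cpb1, which removes basic residues from the end of a peptide, had 1025 and 1041 reads in the males and 126 and 357 in the females. Its levels were 542 and 855 CPM in the males, against 42.5 and 135 CPM in the females. The sexes were 4.01-fold apart at their closest. The males averaged 698 ± 222 CPM and the females 88.8 ± 65.5 CPM (SD, n = 2 each), a log2 fold change of 2.97 ± 0.76 (SE, edgeR adjusted p = 0.0221). The adjusted p was 0.119 without female 1 and 0.0567 with library size alone. The companion gene cpa1, whose enzyme prefers aromatic and aliphatic ends, had 204 and 341 reads in the males and 45 and 262 in the females. In CPM this was 108 and 280 in the males and 15.2 and 99.2 in the females. The lower male and the higher female were 1.09-fold apart, the smallest gap in the set. Its log2 fold change was 1.76 ± 0.90 (SE, 95% interval -0.32 to 3.84, edgeR adjusted p = 0.154). It was 0.83 without male 2, 0.96 without female 1 and 3.53 without female 2 (edgeR adjusted p = 0.0391 in the last).

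The lipases were the least abundant. Reads of cel, a bile salt dependent lipase that also acts on cholesteryl esters, numbered 75 and 148 in the males and 12 and 59 in the females. They came to 39.6 and 122 CPM in the males, against 4.05 and 22.3 CPM in the females. The log2 fold change was 2.61 ± 0.92 (SE, 95% interval 0.49 to 4.73), short of the threshold (edgeR adjusted p = 0.0568). It was 1.5 without male 2 and 4.16 without female 2 (edgeR adjusted p = 0.0283 in the last). For pnlip, the main lipase for dietary triglycerides, 12 and 24 reads were counted in the males and 7 and 0 in the females. These were 6.34 and 19.7 CPM in the males and 2.36 and 0 CPM in the females. A count of 0 in female 2 allows up to 1.14 CPM, the level of 3 reads, a limit that covers counting error only. Tested without the filter on low counts, pnlip had a log2 fold change of 3.14 ± 1.34 (SE, edgeR adjusted p = 0.0785).

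**Figure D2:**
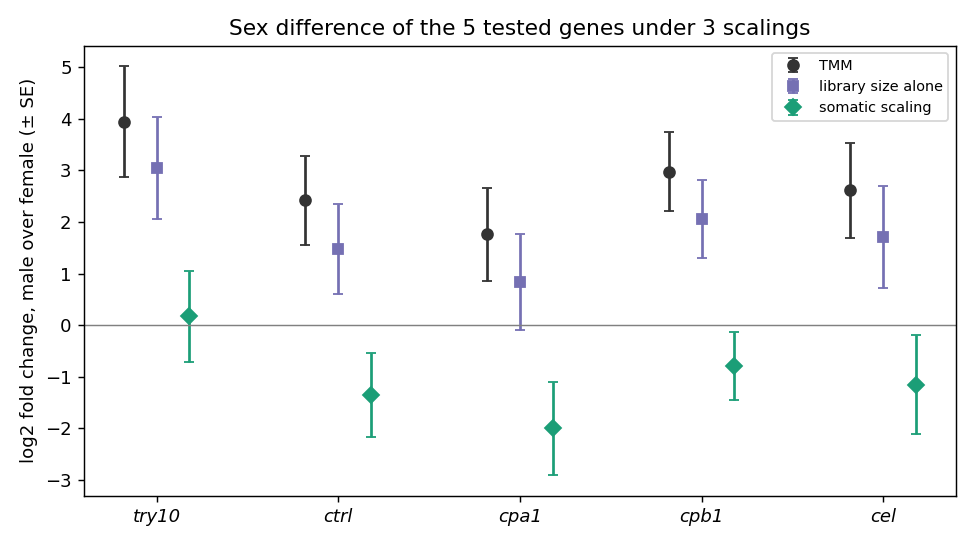
Log2 fold change, male over female, of the 5 tested genes with its SE from edgeR, under TMM scaling, library size alone and scaling to muscle, nerve, connective tissue and liver genes (somatic scaling). The TMM estimates lie between 1.76 and 3.94, while 4 of the 5 somatic estimates are negative.

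Which frogs were left out changed the number of calls, for the members and for all genes. Without female 1 no member passed, against 3.02% of all genes tested higher in males. Without male 2 a single member passed, cpb1, against 16.4% of all genes. All 5 members tested with every frog passed without female 2, against 4.37% of all genes, and without male 1, against 14.3%. The filter then asks for 1 library only, and pnlip entered through a male, so it is not counted among them.

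The frogs of one sex differed as well, and in the same direction for all tested members. Male 2 was above male 1 by 2.80-fold for try10, 2.01-fold for ctrl, 2.60-fold for cpa1, 1.58-fold for cpb1 and 3.07-fold for cel. Female 2 was above female 1 by 2.44-fold for try10, 5.63-fold for ctrl, 6.53-fold for cpa1, 3.18-fold for cpb1 and 5.51-fold for cel. The median log2 ratio was -1.38 for male 1 over male 2 and -2.46 for female 1 over female 2. Over all genes with reads in both frogs, the median size of that ratio was 0.75 in 8772 genes for the males and 0.66 in 9915 genes for the females. The upper quartile of that size was 1.399 for the males, which exceeds the size of the members' median of -1.38. For the females it was 1.189, below the size of the members' median of -2.46. Of the same genes, 4587 of 8772 were higher in male 2 and 4999 of 9915 in female 2.

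**Figure D3:**
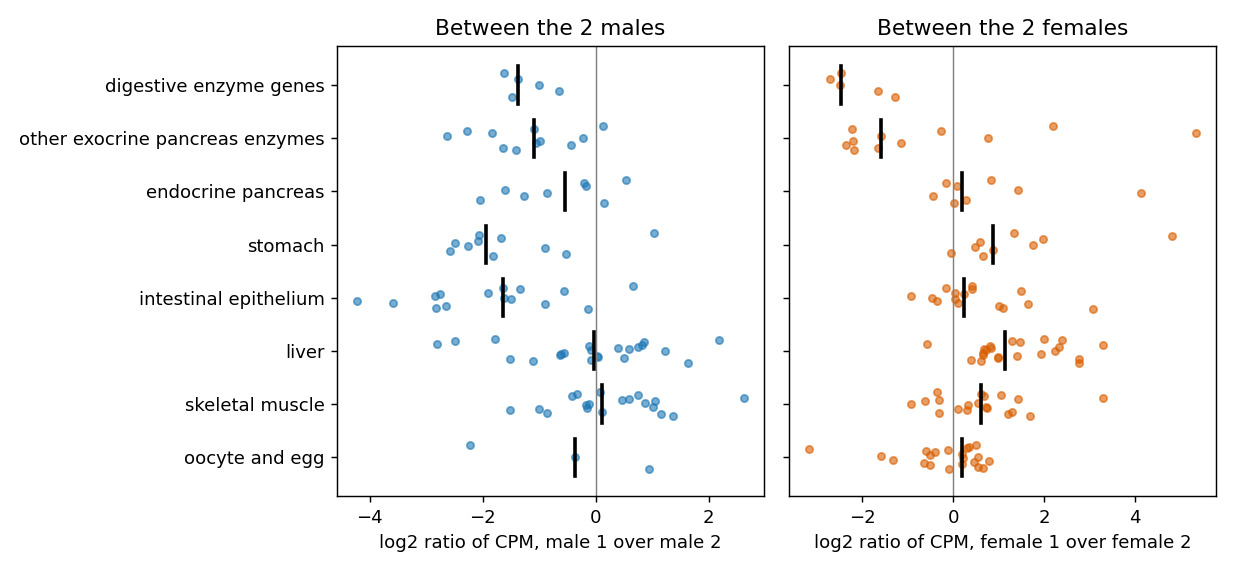
Log2 ratio of CPM of frog 1 over frog 2, males in the left panel and females in the right, with 1 point per tested gene of each list and a bar at the list's median. All 5 digestive enzyme genes lie below 0 in both panels, whereas the liver median of 1.14 lies above 0 in the females.

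Markers of other digestive organs did not share that order in the females. Of 15 tested intestinal genes, 14 were higher in male 2 than in male 1, but 4 were higher in female 2 than in female 1. Stomach genes were higher in male 2 for 9 of 10 and in female 2 for 1 of 9. For liver, 11 of 22 genes were higher in male 2 and 1 of 22 in female 2. Among the other exocrine enzymes, 10 of 11 tested genes were higher in male 2 and 8 of 11 in female 2. Those higher in female 1 were cela3a, amy2b and prss1.2, with log2 ratios of female 1 over female 2 of 5.343, 0.757 and 2.198. The acinar transcription factor gene bhlha15 was higher in male 1 and in female 1. These genes were named after their values were seen. Summed levels of the intestinal list were 14603 and 21742 CPM in the males and 3643 and 638 CPM in the females. A single gene, apoa4, made up most of that sum, and the other 17 genes summed to 1340 and 7195 CPM in the males and 402 and 254 CPM in the females. The 6 enzyme genes summed to 6722 and 17974 CPM in the males and 501 and 1377 CPM in the females. So female 2 had the higher sum of these enzyme genes and the lower intestinal sum of the females. These orders are descriptions of single frogs, with no test.

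**Figure D4:**
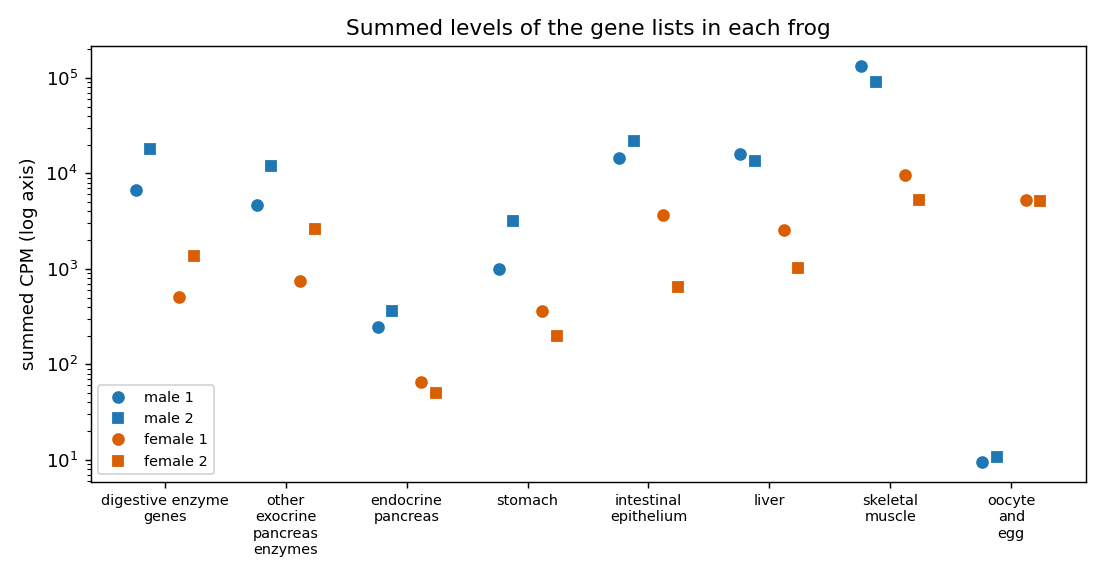
Summed CPM of the enzyme genes and of marker lists of other tissues, with 1 point per frog on a log axis. Female 2 lies above female 1 for the enzyme genes and the other exocrine enzymes. It lies below female 1 for the endocrine pancreas, intestine, stomach and liver lists. The endocrine order depends on a single gene, gck, with 19.9 CPM in female 1 and 1.14 CPM in female 2, named after its values were seen.

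The make-up of the set also varied. Of all member reads, try10 took 86.8% and 90.7% in the males and 83.9% and 74.6% in the females. Female 2 thus had the smallest trypsin share, with an exact Clopper-Pearson 95% interval of 73.1% to 76.0% that covers counting error only. The share of cpa1 was 1.604% and 1.56% in the males and 3.03% and 7.20% in the females. That of ctrl was 2.90% and 2.18% in the males and 3.3% and 6.76% in the females. The share of cpb1 was 8.06% and 4.76% in the males and 8.5% and 9.82% in the females, so male 2 was the lowest. Against whole libraries, the 6 genes took 0.458% and 1.43% of reads in the males and 0.0623% and 0.204% in the females.

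Other exocrine enzymes gave the wider picture. Of 42 listed symbols, 17 had reads, for 18 genes since prss1 names 2 of them. Of these, 11 genes were tested, with a median log2 fold change of 2.19. In that test 4 were higher in males, none in females and 7 did not pass, against 17.1% of all genes tested higher in males. The 4 were the elastase gene cela1 (3.74, edgeR adjusted p = 0.0237), the phospholipase gene pla2g1b (2.19, 0.0364), a prss1 trypsin gene on the same scaffold as try10 (2.79, 0.0386) and the amylase gene amy2a (2.60, 0.0391). Most abundant among the others was ctrc, a chymotrypsin that also regulates trypsin, with 3367 and 8963 CPM in the males and 430 and 1966 CPM in the females. Its log2 fold change of 2.36 ± 1.04 (SE) missed the threshold (edgeR adjusted p = 0.105). Not all enzyme genes had a male excess: cela3b was at -0.05 and prss1.2 at 0.21 on the log2 scale, both named after their values were seen. Of the genes too low for the test, prss3 (a trypsin) had 0 and 0 reads in the males and 0 and 50 in the females. The lipase-related gene pnliprp2 had 0 and 0 reads in the males and 37 and 1 in the females, and the other prss1 gene 0 and 0 in the males and 12 and 4 in the females. These were named after their values were seen. Other genes too low for the test went the other way or were mixed. Reads of cpb2 were 2 and 7 in the males and 0 and 0 in the females. Those of pnliprp1 were 3 and 3 in the males and 0 and 0 in the females. For cpo they were 0 and 9 in the males and 1 and 1 in the females. For cpa6 they were 0 and 2 in the males and 6 and 0 in the females. Tested without the filter, 5 of 18 genes were higher in males, against 12.4% of all genes. The 2 higher in females were prss3 and pnliprp2, against 2446 of 15251 genes overall at that setting. Both entered only without the filter, and nearly all reads of each came from 1 female. So these calls do not bear on a difference between the sexes. Adding ela1 and ela3b, chosen after values were seen, gave 6 of 13 higher in males with the filter, against the same 17.1% of all genes. Of the reads of all 26 exocrine genes, try10 took 44.3% and 43.1% in the males and 29.9% and 21.8% in the females. The ctrc share was 25.6% and 23.7% in the males and 30.6% and 41.7% in the females.

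**Figure D5:**
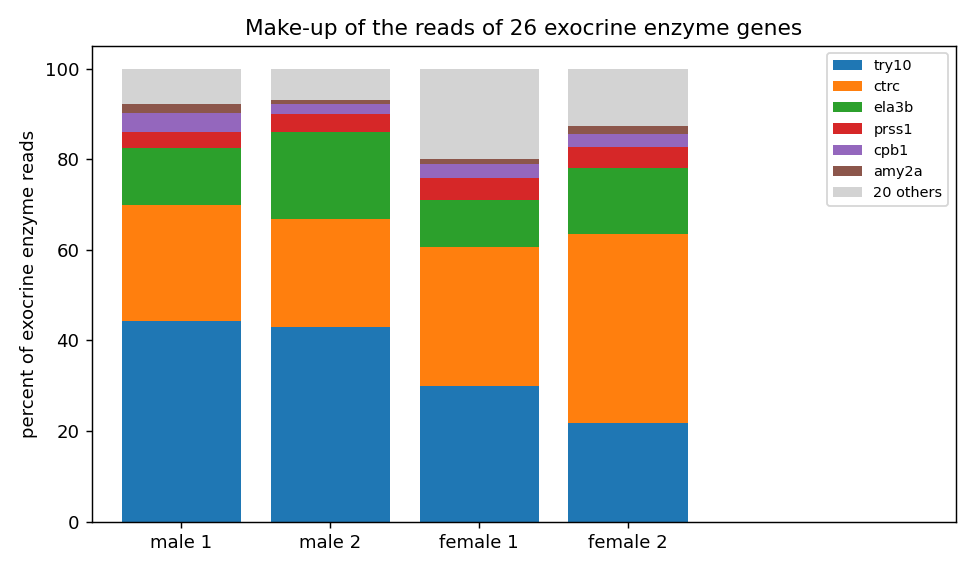
Stacked bars of the share, in percent, of the reads of 26 exocrine enzyme genes in each frog, with the 6 genes of most reads in colour. The try10 share is 44.3% and 43.1% in the males and 29.9% and 21.8% in the females, and the ctrc share is largest in female 2.

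Among 8 tested genes of acinar secretion, cuzd1 and tmed6 were higher in males, against 17.1% of all genes tested. A vesicle transport gene, rab27b, was higher in females, as were 1995 of all 10188 genes. Reads in females 1 and 2 were 8 and 8 for cuzd1 and 5 and 4 for tmed6. Both met the minimum for testing through the males only, so their calls are no separate sign of a male excess. Among acinar transcription factors only bhlha15, which drives secretory cell maturation, was tested (log2 fold change 3.21, edgeR adjusted p = 0.028). It too met the minimum through the males only, with 9 and 5 reads in the females. The pancreatic regulator ptf1a, named after its values were seen, had 1 read in all, in female 1. Of 8 tested endocrine pancreas genes, 5 were higher in males, with a median log2 fold change of 2.80 over the list. Among those called, mafb, g6pc2 and sst met the minimum through the males only.

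The 6 genes whose levels over the 4 libraries were nearest to the median profile of the 5 tested members, among 7708 candidates, included the exocrine enzyme genes ctrc and amy2a. They were LOC100489516 at a distance of 0.298 log2 units, ctrc at 0.332, neu1 at 0.433, amy2a at 0.477, LOC100490667 at 0.494 and reep5 at 0.504. Not all exocrine enzyme genes lay near that profile. By the same distance a prss1 gene ranked 9, pla2g1b 35, ela3b 46, ctrb2 59, ela1 108 and cela1 137. Further off, clps ranked 497, amy2b 2460, cela3b 3549 and cela3a 5424.

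No member had enough sites past the filter on low counts for the test of site use. Each of cpa1, cpb1, cel, ctrl and pnlip had a single site, against 14.97% of the 10188 tested genes. That share was 29.8% of the 4617 genes with 20 to 100 reads, where pnlip lies. It was 11.8% of the 6132 genes with 100 to 1000 reads and 9.08% of the 1046 with 1000 to 10000 reads. All main sites had the class code for overlap with an exon, as did 46.1% of the most used sites of tested genes, while a further 37.8% of those had the code for lying inside an exon. The cpb1 site was at 118584642 on the plus strand of chromosome 5, and that of cpa1 at 77102118 on the plus strand of chromosome 3. For cel it was 7201464 on the plus strand of chromosome 8 and for ctrl 43576122 on the minus strand of chromosome 4. The try10 and pnlip sites were on unplaced scaffolds, at 483 on the minus strand and 41906 on the plus strand, and the RefSeq gene table puts both genes on chromosome 7. In the deposited table cpa1 lies between LOC100491987 and cep41, cpb1 between agtr1 and LOC105947369, and cel between gtf3c5 and ralgds. Positions are as deposited. The sources used here give no genome build. A second try10 site, at 4040 inside an exon, had 0 and 2 reads in the males and 0 and 4 in the females. That left 99.99% of the reads of male 2 and 99.85% of those of female 2 at the main site. Of the 94 genes with 10000 reads or more, 68.1% likewise had at least 99% of their reads at a single site.

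Tested by site, cpb1 alone of 5 passed (log2 fold change 2.80, edgeR adjusted p = 0.0399), against 16.2% of 17215 sites higher in males. The main try10 site had a log2 fold change of 3.78 ± 1.3 (SE) and an edgeR adjusted p of 0.055. In the authors' deposited table the try10 site alone had an FDR under 0.05, at 0.0299 with a fold of -10.6, where a negative sign means higher in males, as judged from the counts. That was against 2.01% of all 66426 sites that were higher in males at that FDR in the authors' deposited table.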

How the data were processed

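Raw read counts per polyadenylation site, with p-values and a signed fold score of the authors' own test, were deposited by the authors in a single table, per the file headers. Per the submitters' processing notes, Bowtie2 2.2.3 was used. For the genome build, the grouping of reads into sites and the tool of the authors' test, the sources used here give nothing. Counts were summed per gene, leaving out 2709 sites on the strand opposite to their gene. Gene sums and sites entered edgeR 4.0.16 under R 4.3.3 (TMM, filterByExpr with minimum count 10 and minimum total 15, glmQLFit and glmQLFTest on sex, Benjamini-Hochberg threshold 0.05), and site use with diffSpliceDGE. The code was tested on simulated data. Alternatives included DESeq2 1.42.0, other scalings and filters, a replicate block and leaving out each frog. The members and gene lists were chosen with earlier results of these data known. All members were named, with up to 4 other genes per list by smallest adjusted p and the 6 of nearest profile. Class codes were read as in Cuffcompare, which the file does not name. The labels mention no molecular identifiers. P-values test the mean difference between the sexes, set against a spread estimated from 2 frogs per sex and moderated across genes. Chromosome numbers come from a RefSeq gene table (UCB_Xtro_10.0).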

Additional observations from a re-analysis of the deposited data

How the results depend on the processing

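With library size alone, 1015 genes were higher in males and 3246 in females, with 1 member and 0 member sites past the threshold. With libraries scaled to muscle, nerve, connective tissue and liver genes these were 60 and 7808 genes and 0 members, and 282 and 12002 sites and 0 member sites. That scaling reversed the log2 fold changes of cel (-1.15), cpa1 (-2.0), cpb1 (-0.79) and ctrl (-1.35), and at their sites those of cpa1 (-2.09), cpb1 (-0.88), cel (-1.24) and ctrl (-1.44). Members past the threshold numbered 4 without the filter on low counts (12.4% of all genes higher in males), 4 with DESeq2 (18.6%; 2 member sites, with 2993 of 17215 sites higher in males) and 4 without intronic sites (16.5%). With a filter of at least 1 CPM in 2 libraries, 4520 sites were higher in males and 8837 in females. The causes were not tested. With the replicate block, 5 members and 5 member sites passed, with 21.0% of all genes and 3414 of 17215 sites higher in males, but same-numbered frogs are not known to be paired, and their deviations correlated at 0.307 across genes over only 2 pairs. Leaving out each frog gave 343 to 1911 genes higher in males and 474 to 2510 in females, with 0 to 6 members, the 6 including pnlip, which met the filter in male 2 alone. For sites it gave 683 to 2374 higher in males and 1616 to 3453 in females, with 0 to 3 member sites. A fit that leaves out a frog assumes that the lone frog of that sex varies like the others. Without the filter, the 2 try10 sites gave an adjusted p of 0.352 for site use. Few reads limit pnlip and cel.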
